A study of Mus musculus with 12 samples.

Results

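Of the 193836 differentially methylated regions (DMRs) that whole-genome bisulfite sequencing (WGBS) listed between control and Tet triple conditional knockout retinas, 190763 lay on autosomes, and 2312 of these, or 1.21%, were lower in the knockout. The 1500 losses described here were the autosomal regions that were already highly methylated in the controls: they were selected on a mean control level of at least 80% and a lower mean level in the knockout. Another 812 autosomal losses started from a control level below 80%, and 32175 autosomal regions had a control level of at least 80% and were higher in the knockout (gains at a high level). Both the direction and the control level chose the members, so their levels and falls are given as a description, with no test. The losses took 2 forms. Short, CpG-dense stretches of sequence that recurs many times in the genome fell by a median of 5.78 percentage points, and sparser stretches of mostly unique sequence fell by a median of 15.4 points, with the largest numbers in a bin of 5 Mb on chromosome 9 and one on chromosome 1.

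Whole retinas of C57 BL/6J mice were collected at postnatal day 21 (P21). Controls (Cre-, wild type by their label) were compared with animals whose Tet1, Tet2 and Tet3 alleles, all loxp/loxp, were deleted by a Chx10-Cre-GFP transgene that acts in retinal progenitors (Tet tcKO). Retinas of 2 animals were pooled per sample, and each of 3 samples per group gave a WGBS and a bACE-seq library, 12 in all. WGBS reads 5-methylcytosine and 5-hydroxymethylcytosine together (5mC + 5hmC), and bACE-seq reads 5hmC alone. Cre+ animals were in-crossed so that breeders and offspring carried 2 copies of the transgene, while Cre- animals came from separate Cre- breeders, so genotype and breeding line cannot be told apart. The whole retina was analysed, so a change of level within cells and a change in the mix of cells cannot be told apart either. The lists give 1 mean level per group and no counts, so depth and the spread between replicates are unknown and no test between groups could be made from them.

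Methylation of CpGs is laid down by DNA methyltransferases and copied at each cell division by DNMT1 with UHRF1. TET enzymes oxidise 5mC to 5hmC and onwards, which leads to an unmodified cytosine, so higher methylation is a known effect of losing them. Mammalian genomes hold very many copies of transposable elements, most of which are kept highly methylated in somatic tissues, where this methylation is part of their silencing. The repeat class of the regions was not assigned here.

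The sequences that carry the 2 forms are shown first, from the RefSeq sequence of GRCm38 (mm10), plus strand, in lower case with every CpG in capitals. A region was listed from the C of its first CpG to the C of its last, and the printed sequence includes the final G. The first pair holds a representative of each of the 2 largest families of members with shared sequence, chosen after their values were seen, as the member of under 300 bp linked to most others. The second pair had the largest falls among all members. The last 4 are mostly unique members, from the 3 bins of 5 Mb that held most members and from the start of Fgf4, and were named for the size of their area statistic.
Family 1, chr2:162595164-162595399: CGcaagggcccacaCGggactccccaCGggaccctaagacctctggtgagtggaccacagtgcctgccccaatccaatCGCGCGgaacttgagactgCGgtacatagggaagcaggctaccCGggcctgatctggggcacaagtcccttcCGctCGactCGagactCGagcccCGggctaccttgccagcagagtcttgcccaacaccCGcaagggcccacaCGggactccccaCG
Family 2, chr1:116648416-116648507: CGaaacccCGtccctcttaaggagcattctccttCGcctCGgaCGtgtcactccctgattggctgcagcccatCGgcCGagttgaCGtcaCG
Largest fall, in an intron of Hs2st1, chr3:144484298-144484362: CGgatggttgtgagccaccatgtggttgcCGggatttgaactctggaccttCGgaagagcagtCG
Next largest fall, intergenic, chr19:50088320-50088394: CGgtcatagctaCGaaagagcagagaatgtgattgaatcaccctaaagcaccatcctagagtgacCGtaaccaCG
Fullest bin, intergenic, chr9:83193854-83194088: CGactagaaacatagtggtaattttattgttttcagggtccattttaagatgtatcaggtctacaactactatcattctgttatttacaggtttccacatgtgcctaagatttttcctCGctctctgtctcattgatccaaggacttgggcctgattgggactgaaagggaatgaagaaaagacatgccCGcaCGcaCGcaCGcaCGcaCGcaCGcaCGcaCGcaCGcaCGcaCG
Next fullest bin, intergenic, chr1:65661709-65661952: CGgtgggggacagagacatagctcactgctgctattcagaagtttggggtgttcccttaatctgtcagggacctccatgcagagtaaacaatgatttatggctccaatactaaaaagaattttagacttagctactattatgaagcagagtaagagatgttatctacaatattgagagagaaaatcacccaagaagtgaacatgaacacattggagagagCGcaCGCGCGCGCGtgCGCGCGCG
Chromosome 12 bin, chr12:17465682-17465919: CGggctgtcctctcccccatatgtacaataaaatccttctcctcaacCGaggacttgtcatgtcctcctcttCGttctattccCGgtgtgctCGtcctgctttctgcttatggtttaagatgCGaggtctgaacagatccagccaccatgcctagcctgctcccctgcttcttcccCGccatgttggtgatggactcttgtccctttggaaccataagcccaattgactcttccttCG
Fgf4, chr7:144860175-144860418: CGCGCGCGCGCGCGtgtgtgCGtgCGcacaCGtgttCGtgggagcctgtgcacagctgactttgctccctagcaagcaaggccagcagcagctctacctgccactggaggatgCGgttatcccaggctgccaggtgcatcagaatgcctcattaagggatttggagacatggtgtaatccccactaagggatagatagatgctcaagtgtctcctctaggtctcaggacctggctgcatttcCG

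The family 1 stretch, 236 bases with 16 CpGs, was at 94.7% in Cre- and 86.1% in Tet tcKO. Each of its 31-base words occurred again elsewhere in the genome, at a median of 3318 places per word. The family 2 stretch packed 9 CpGs into 92 bases and went from 96.0% to 91.1%, its words occurring at a median of 903 places. By contrast, the intergenic stretch of 75 bases on chromosome 19, whose words occur once in the genome, went from 85.9% to 32.0% over 4 CpGs.

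Over all 1500 members, the Cre- level ranged from 80.1% to 99.2% with a median of 93.3%. The Tet tcKO level ranged from 30.9% to 96.7% with a median of 83.7%. The fall had a median of 8.97 percentage points, the middle 80% of members lay between 2.94 and 24.0 points, and the largest fall was 63.2 points. Most members were therefore still highly methylated in the knockout: 889 (59.3%) were at 80% or above and 25 were below 50%. A fall of at least 10 points was found in 691 members and one of at least 20 points in 256. The members covered 438 kb and 10795 listed CpGs in all. They were short, with a median of 160.5 bp and 5 CpGs, and 507 of them held 4 CpGs, the smallest number in the list. The plot of levels in each group places both forms against the line of equal levels.

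**Figure D1:**
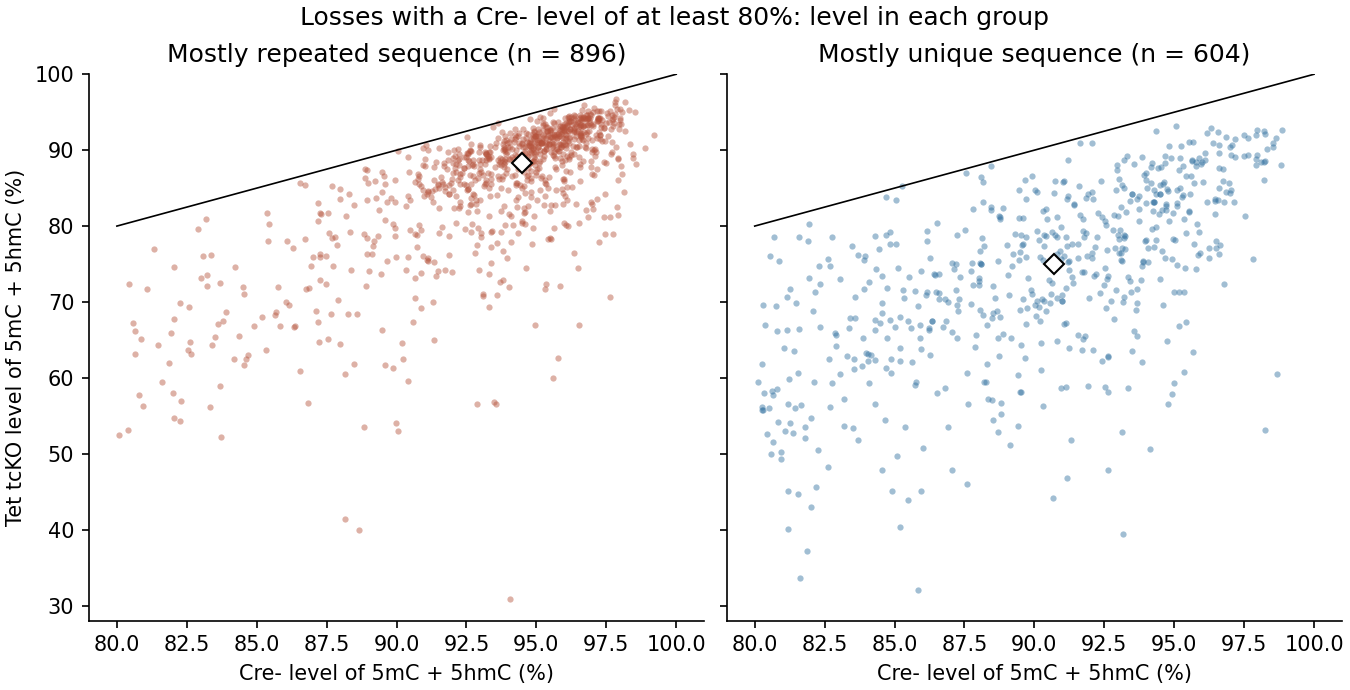
Mean level of 5mC + 5hmC in Tet tcKO (vertical, %) against Cre- (horizontal, %) for each member, split into 896 of mostly repeated and 604 of mostly unique sequence. The line marks equal levels and the open diamond the medians, 94.5% and 88.3% for mostly repeated and 90.7% and 75.0% for mostly unique members, and the mostly repeated members crowd just under the line.

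Losses were rare among listed regions at moderately high levels and common at the top of the scale. Between 80 and 85% in Cre-, 171 of 18705 autosomal regions (0.914%) were losses, and between 85 and 90%, 248 of 11483 (2.16%). Between 90 and 95%, 603 of 2986 (20.2%) were losses. From 95% upwards, 478 of the 501 listed regions (95.4%) were losses. A level cannot exceed 100%, so the room for a gain shrinks along this scale while the room for a loss does not, and these shares describe the list rather than all CpGs at a given level. The median fall became smaller as the Cre- level rose, from 18.4 points at 80 to 85% to 5.35 points from 95% upwards.

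**Figure D2:**
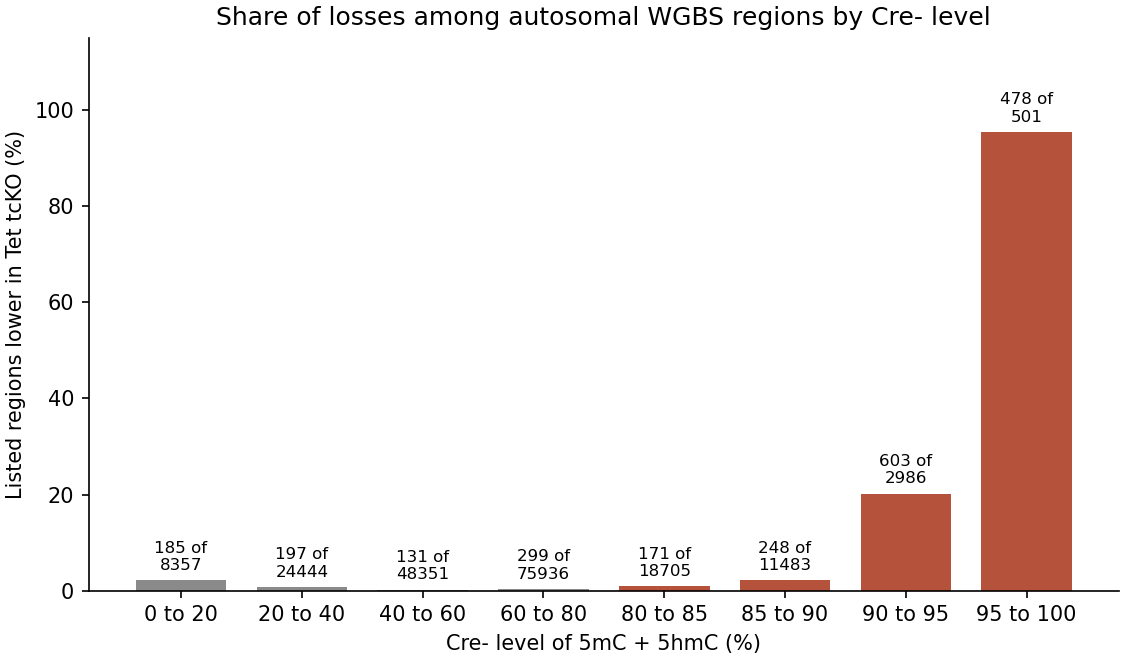
Share of autosomal WGBS regions that were lower in Tet tcKO (vertical, %) by class of Cre- level (horizontal, %), with the number of losses of the number of regions over each bar. Bars of the classes from 80% upwards are red, and the share goes from 0.914% at 80 to 85% to 95.4% at 95 to 100%.

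A property that most members shared, and that their choice did not use, was repeated sequence. A median of 97.5% of a member's bases was soft-masked as repeat in the reference, and 730 members were masked over their whole length. Of all member bases, 61.3% were masked, beside 23.1% of the bases of the losses from a lower level, 17.5% of those of gains at a high level and 14.7% over all autosomal WGBS regions. Masking marks old and diverged copies too, so every 31-base word of a region was also looked up on both strands of the whole genome. In 896 members (59.7%) at least 50% of the words occurred elsewhere, and these are called mostly repeated. The same held for 106 (13.1%) of the losses from a lower level and for 2559 (7.95%) of the gains at a high level. The gains at a high level had a median Cre- level of 84.2%, against 93.3% for members, so these sets were not matched for level. In 665 members every word was repeated, in 336 none was, and the rest lay in between. In 338 members the median word occurred at 1000 places or more. Reads with a mapping quality under 10 had been removed by the authors, and how many reads stood behind repeated regions was not analysed here, so the part of read placement in these levels was not tested.

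Repeated and unique members differed in level, size of fall and CpG density. The 665 fully repeated members had a median of 98 bp, 6 CpGs and 6.67 CpGs per 100 bp, and went from a median of 94.8% to 89.8%, with a median fall of 4.64 points. The 336 members without repeated words were longer and sparser, with a median of 227 bp, 5 CpGs and 2.21 CpGs per 100 bp. They went from a median of 90.5% to 74.2%, with a median fall of 16.0 points. A fall of at least 20 points was found in 62 of 896 mostly repeated and in 194 of 604 mostly unique members. Across all members the fall was smaller where CpGs were denser (Spearman's rho = -0.45, n = 1500). The direction was the same among mostly repeated (rho = -0.33, n = 896) and mostly unique members (rho = -0.31, n = 604). The fall was also smaller where the Cre- level was higher, with rho = -0.45 over all members. That rho was -0.36 among mostly repeated and -0.28 among mostly unique members. These regions share the same libraries and were smoothed along the genome, so the correlations are descriptions.

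**Figure D3:**
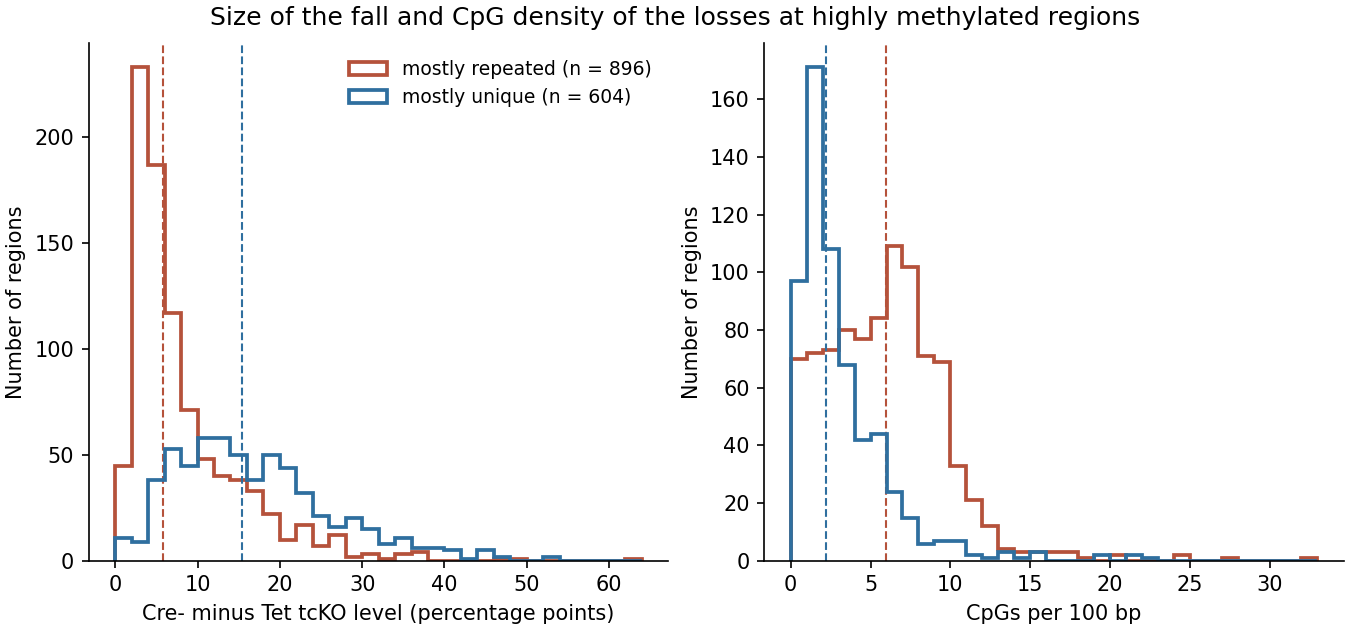
Number of members by fall from Cre- to Tet tcKO (left, percentage points, bins of 2) and by CpG density (right, CpGs per 100 bp), for 896 mostly repeated and 604 mostly unique members. Dashed lines mark the medians: the fall was 5.78 points for mostly repeated and 15.4 for mostly unique members, and the density 5.95 and 2.22 CpGs per 100 bp.

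The list and the reference differed in their number of CpGs in repeated members. The listed number equalled the number of CpGs in the reference in 1349 members (89.9%), against 99.2% of gains at a high level, and in 759 (84.7%) of the mostly repeated members. It was smaller in 151 members, of which 137 were mostly repeated. Within mostly repeated members the list held 6505 of the 8233 reference CpGs, while within mostly unique members it held 4290 of 4321. The levels of these 137 members describe only part of their CpGs.

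Part of the repeated sequence was shared between members. A pair of members was linked where more than 25% of the words of the shorter occurred in the other, and chains of links made 27 families with 695 members. Members of a family need not share words directly: the printed member of family 1 was linked to 83 others and that of family 2 to 37. Family 1 held 412 members, 27.5% of all, and family 2 held 161. Both were spread over all 19 autosomes. Family 1 members had a median of 121 bp, 7 CpGs and 1890 places per word, and went from a median of 93.9% to 88.0% with a median fall of 5.23 points. The fall of the middle 80% of them lay between 2.56 and 19.9 points. Family 2 members had a median of 101 bp and 6 CpGs, and went from 95.9% to 91.6% with a median fall of 4.34 points. The third family had 23 members on 14 chromosomes and a median fall of 6.02 points. In all, 527 of the 896 mostly repeated members belonged to the 2 largest families and 256 to none.

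Of the 5 members with the largest area statistic, 4 were mostly repeated. The largest, 918 bp on chromosome 1 (chr1:164223993-164224910, intergenic, with the start of the thiamine transporter gene Slc19a2 24595 bp away), held 59 CpGs and went from 87.3% to 72.9%. The next, 464 bp at chr2:46281821-46282284, went from 89.6% to 61.8%. Its list entry covered 50 of 94 reference CpGs. In contrast to most of the 370 members with listed 5hmC, its 5hmC was higher in the knockout, at 31.5% in Cre- and 48.9% in Tet tcKO. An intergenic region at chr4:107666888-107667469, a member of family 2 with 37 CpGs, went from 82.5% to 63.6%. A region of 39 CpGs with the start of Alyref2 12894 bp away, at chr1:171490414-171490755, went from 94.8% to 86.3% without a masked base, although 85.0% of its words were repeated. Its 5hmC was higher in the knockout too, at 4.31% in Cre- and 6.65% in Tet tcKO. The fifth, of 28 CpGs in coding sequence of Plet1, which encodes a surface protein known from placenta, was unique sequence at chr9:50500673-50501434 and went from 80.3% to 55.7%.

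Most of the largest falls were found at few CpGs. The intronic stretch of Hs2st1, a gene for an enzyme of heparan sulfate synthesis, fell by 63.2 points from 94.1% to 30.9% over 4 CpGs, and the stretch on chromosome 19 by 53.9 points. The Hs2st1 stretch was fully repeated, its words occurring at a median of 67 places, while that on chromosome 19 was unique. Next came chr9:84999060-85000738, with 5 of 6 reference CpGs listed in 1679 bp, which went from 93.2% to 39.4%. Of its bases 94.5% were masked and 49.9% of its words were repeated, just under the cut of 50%. With 17 CpGs, the region in an intron of the meiosis gene M1ap (chr6:83025570-83025855) rested on more sites and went from 88.7% to 39.9%. Like the Hs2st1 stretch, this region was mostly repeated, with 60.7% of its words found elsewhere. The part of read placement in the falls at M1ap, at Hs2st1 and at chr9:84999060-85000738 was not tested. The fifth, at chr9:82496812-82497248, went from 81.6% to 33.6% over 4 CpGs. Both of these chromosome 9 regions lay in the bin with the greatest number of members.

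Along the autosomes, members of both kinds were spread widely, and a few bins held many. Of 503 bins of 5 Mb, 86 held no member and 370 held 1 to 5, with a median of 2. The 10 fullest bins held 330 members (22.0%) but 2.07% of the autosomal CpGs. These bins were picked by their number of members, and 220 of the members in them were mostly unique and 110 mostly repeated. Mostly repeated members were found in 371 bins, at most 28 in one, and mostly unique members in 213 bins. Among mostly unique members, 40.2% had another member within 50 kb, against 21.5% of the mostly repeated members, while within 5 kb the shares were 12.1% and 10.8%.

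**Figure D4:**
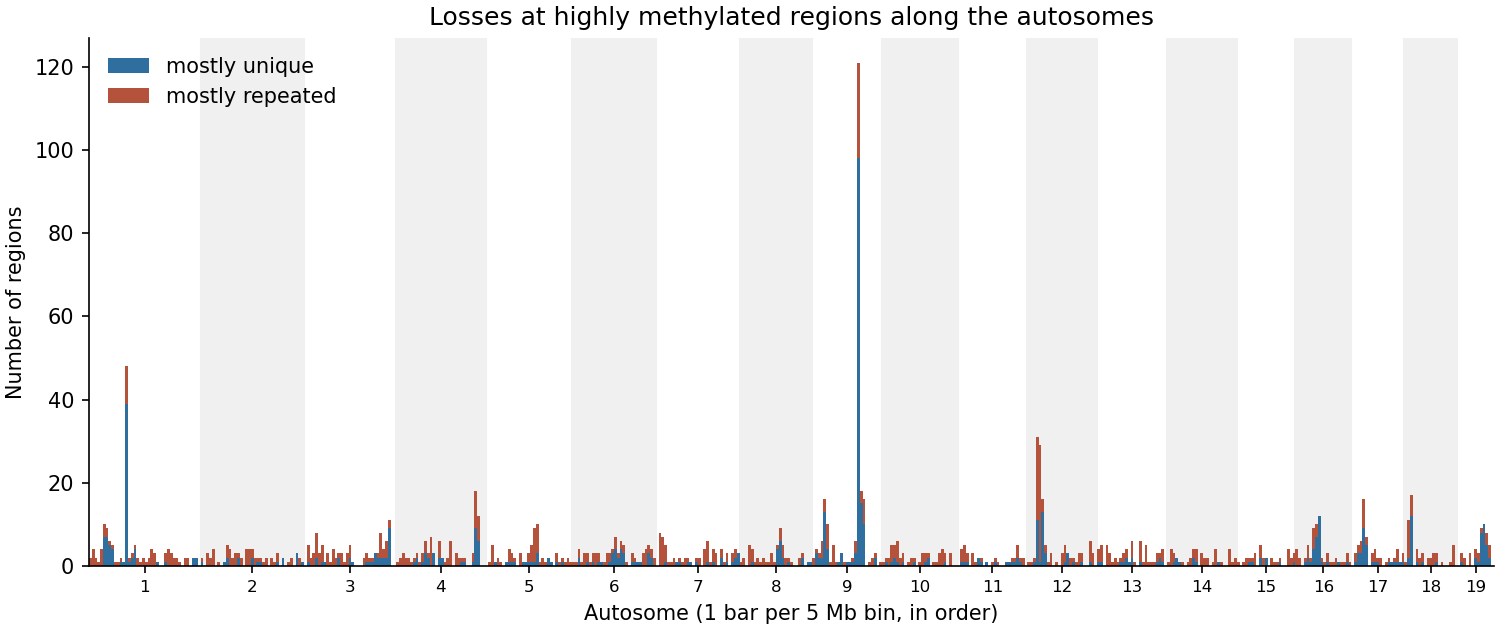
Number of members in each 5 Mb bin along the 19 autosomes, with mostly unique members in blue and mostly repeated members in red on top. The tallest bars are a bin on chromosome 9 with 121 members, of which 98 were mostly unique, and a bin on chromosome 1 with 48, of which 39 were mostly unique.

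The fullest bin, between 80 and 85 Mb on chromosome 9, held 121 members, where its share of autosomal CpGs corresponds to 2.43. Their median fall was 20.8 points, from 92.1% to 69.3%. The 98 mostly unique members among them had a median fall of 22.1 points, against 13.7 points for the 506 mostly unique members elsewhere. Gains were listed there too: the bin held 292 gains, close to the 306 that its share of CpGs corresponds to, with a median rise of 19.9 points. At finer scale, 42 members lay between 82 and 83 Mb, 32 between 83 and 84 Mb, 23 between 81 and 82 Mb and 18 between 80 and 81 Mb. More members than gains were listed from 81 to 82 Mb, 23 against 10, and from 82 to 83 Mb, 42 against 29. The next bin, between 85 and 90 Mb, still held 18 members. Without the fullest bin, the median fall over the other 1379 members was 8.06 points. Sequence differences between the breeding lines of Cre- and Tet tcKO animals were not examined. In the full bins, too, genotype and breeding line cannot be told apart.

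The named regions of this bin differed in kind. At chr9:82680992-82681442, 37 CpGs in masked sequence went from 82.1% to 74.6%. The region with the start of Hmgn3, a gene for a nucleosome-binding protein, 47285 bp away went from 86.3% to 63.0% over 14 CpGs, and its printed sequence ends in a run of alternating CG and CA. A region of 18 CpGs over an exon of the noncoding gene Gm27216 (chr9:83250058-83251068) went from 94.0% to 78.1%. Among genes chosen after their values were seen, for holding most members, Mei4 in the same bin (chr9:81863670-82206007) overlapped 12. Mei4 encodes a protein that meiotic recombination needs, and its members had a median fall of 19.2 points and a largest of 40.8. The noncoding gene Gm26713 overlapped 6 members with a median fall of 37.1 points. Myo6, which encodes an unconventional myosin, overlapped 5 with a median fall of 21.6 points.

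On chromosome 1, the bin between 65 and 70 Mb held 48 members with a median fall of 17.6 points. The printed intergenic region, whose nearest start was that of the lens crystallin gene Crygf, 264690 bp away, went from 89.7% to 62.6% over 11 CpGs. In an intron of Erbb4, the gene for a neuregulin receptor, a fully repeated stretch at chr1:68613230-68613374 changed little, from 96.8% to 92.5%. Erbb4 (chr1:68032186-69108059) overlapped 10 members, 8 of them mostly unique, with a median fall of 14.1 points. The third region, at chr1:67098166-67098753 with the start of the urea cycle gene Cps1 24567 bp away, went from 88.1% to 75.0%. Outside these bins, Lsamp (chr16:39984361-42181679), a gene for a neuronal adhesion protein, overlapped 12 members, all mostly unique, with a median fall of 19.7 points.

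On chromosome 12, adjoining bins from 15 to 20 Mb and from 20 to 25 Mb held 31 and 29 members, of which 20 and 28 were mostly repeated. At chr12:15192441-15192692, a family 1 stretch of 17 CpGs went from 95.8% to 89.0%. Another family 1 stretch, chr12:18162765-18163073, went from 91.0% to 84.8%. The unique stretch printed from this bin went much further, from 81.2% to 45.1% over 8 CpGs.

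Members were more often intergenic than the listed regions as a whole. By their midpoints, 915 (61.0%) were intergenic, against 32.5% of all autosomal WGBS regions, and 42 (2.80%) were within 2 kb of a start site, against 10.5%. Gene bodies held 543 members (36.2%), against 57.0% of all. Coding sequence was overlapped by 33 members (2.20%), against 8.72%. The median distance to the nearest start site was 47622.5 bp for members and 21614 bp for all autosomal WGBS regions. Of mostly repeated members 69.1% were intergenic, and of mostly unique members 49.0%. Members also lay apart from the gains: the nearest gain was a median of 12063 bp away, against 3115.5 bp for the losses from a lower level. They overlapped 480 of 30233 autosomal genes (1.59%), 373 of them protein-coding. Of the gene families counted by symbol on autosomes, 9 of 394 Zfp genes (zinc finger proteins) were overlapped, 4 of 103 Cyp genes (cytochromes P450) and 3 of 330 Vmn genes (vomeronasal receptors). A single gene was overlapped among 1128 Olfr (olfactory receptors), 44 Pcdh (protocadherins) and 12 Speer genes, and none among 43 Hox, 22 Ugt and 34 Scgb genes. Genes with provisional Gm or Rik names were overlapped in 85 of 7574 and 18 of 2471 cases.

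Of all autosomal genes, 583 (1.93%) had a member within 5 kb, so few would be counted in any short list. Among 54 retinal, Tet, DNA methylation and imprinted genes looked up, 1 of them not on an autosome, the count was 0. A gain was found in that range for 49 of them, against 79.0% of all autosomal genes. These lists covered rods (7 genes), cones (7), photoreceptor precursors (3), bipolar cells (4), Muller glia (4), amacrine cells (4), ganglion cells (3) and horizontal cells (2). They also covered the 3 Tet genes, the DNA methyltransferase genes Dnmt1, Dnmt3a and Dnmt3b together with Uhrf1, and 13 imprinted genes. Losses from a lower Cre- level were listed within 5 kb of 7 of these genes. They were Prdm1, Dnmt3a and the imprinted genes Kcnq1ot1, Peg10, Mest (with 2), Plagl1 and Nnat. The share of all autosomal genes with such a loss in range was not counted, so this number cannot be set against that of the members.

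Near protein-coding start sites, 21 members were found, and the 5 with the largest area statistic were of different kinds. In the coding sequence of Tktl2, a transketolase-like gene, a region of 24 CpGs (chr8:66511994-66512439) fell by 4.59 points from 95.7%. The Fgf4 stretch, in an intron of this growth factor gene and 1090 bp from its start, went from 86.9% to 69.9% and opens with a run of CG. In the zinc finger gene Zfp846, 11 CpGs in 61 bp (chr9:20582521-20582581) of repeated sequence went from 94.3% to 88.0%. A region 1759 bp from the start of Scd3, a fatty acid desaturase gene, went from 80.8% to 58.5% (chr19:44201404-44201617). The fifth, at chr5:11344243-11344628 in the coding sequence of Speer1, a gene of a multicopy family, went from 93.0% to 74.2%. Of its words, 88.5% occur elsewhere. The part of read placement in the levels at Speer1 and at Zfp846 was not tested, so both are uncertain.

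5hmC, which the choice of members did not use, was listed as lower in the knockout at a smaller share of them than of the other regions. In all, 366 members (24.4%) shared 1 bp or more with a 5hmC loss, against 81.1% of all autosomal WGBS regions, 80.9% of the gains at a high level and 47.2% of the losses from a lower level. The share was 17.97% among mostly repeated and 33.9% among mostly unique members. It was 38.7% among members with at least 10 CpGs. These sets were not matched for length or Cre- level. The median length was 160.5 bp for members, 238 bp for gains at a high level and 379 bp for all autosomal WGBS regions. A 5hmC gain was overlapped by 4 members (0.267%) and by 2 (0.246%) of the losses from a lower level. Over all autosomal WGBS regions the number was 21 (0.0110%), and among gains at a high level 3 (0.00932%). Of the 582432 autosomal bACE-seq regions, 582238 were lower in Tet tcKO, so a lower 5hmC value in the knockout is nearly always fixed by the list where it gives one. Where a member overlapped bACE-seq regions, the median 5hmC was 10.6% in Cre- and 2.00% in Tet tcKO. In mostly repeated members it was 5.73% and 1.45%, and in mostly unique members 14.0% and 2.69%. The Cre- value of gains at a high level was larger, at 17.0%. bACE-seq regions were called separately, and a member without one may still have changed in 5hmC.

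**Figure D5:**
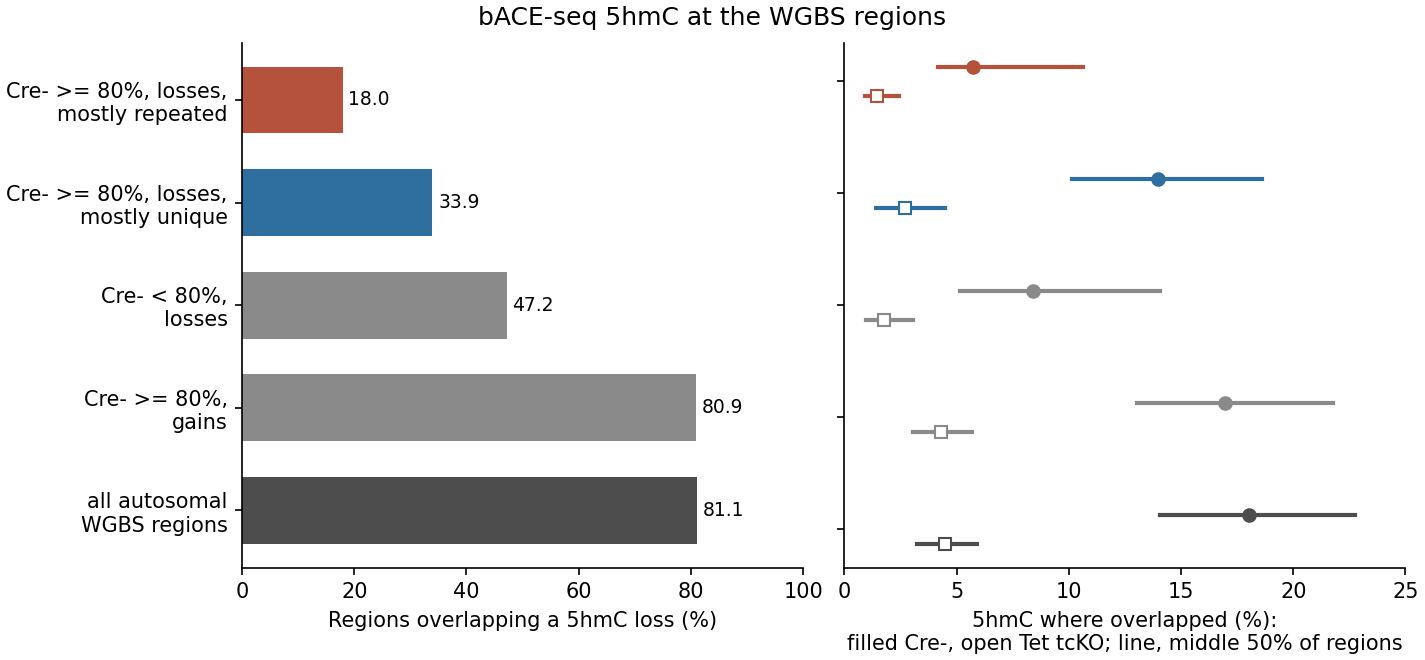
Left, share of WGBS regions that shared 1 bp or more with a bACE-seq loss of 5hmC (%), for mostly repeated and mostly unique members, the losses from a lower Cre- level, the gains at a high Cre- level and all autosomal WGBS regions. Right, 5hmC (%) where bACE-seq regions overlapped, as medians (filled circles Cre-, open squares Tet tcKO) with lines over the middle 50% of regions. Nearly all bACE-seq regions are losses, so the lower Tet tcKO values follow from their choice, and the Cre- median was 5.73% in mostly repeated and 14.0% in mostly unique members.

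Since WGBS counts both marks, the fall of each member was set beside that of its 5hmC. Both directions were fixed beforehand: members were chosen for a WGBS fall, and nearly all bACE-seq regions are losses. The 5hmC values are means over whole bACE-seq regions that share 1 bp or more with the member. The values below are therefore a description, and the part of 5hmC in the WGBS fall was not tested. In the 370 members that overlapped bACE-seq regions, 5mC + 5hmC fell by a median of 9.48 points and 5hmC by a median of 8.48 points. The WGBS fall was the larger in 221 of them (59.7%), and the median of the difference was 1.14 points, with the middle 80% between -6.57 and 11.5 points. In mostly repeated members the median difference was 0.493 points (n = 165), and in mostly unique members 2.17 points (n = 205). Where bACE-seq regions covered at least 50% of the member it was 0.712 points (n = 254). The WGBS fall exceeded that of 5hmC by at least 5 points in 104 members and was at least 5 points smaller in 56. In mostly unique members the median WGBS fall was 16.6 points without a bACE-seq region and 13.1 points with one. In mostly repeated members it was 5.82 and 5.61 points.

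The 3 named members with the largest fall in 5hmC were intronic and mostly unique. Their 5hmC values are means over the whole of the overlapping bACE-seq regions, not over the CpGs of the member alone. In Kcnh1, a potassium channel gene, 12 CpGs in 55 bp (chr1:192487566-192487620) went from 89.4% to 75.5% in 5mC + 5hmC. Over the bACE-seq regions at this member, 5hmC went from 43.1% to 16.3%. In the noncoding gene Gm12514 (chr4:55180712-55180826), 5hmC went from 33.3% to 8.76%, and 5mC + 5hmC from 96.5% to 83.5%. In Kansl1l (chr1:66767116-66767558), 5hmC went from 26.2% to 1.96%, and 5mC + 5hmC from 92.4% to 71.1%.

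Several printed unique stretches carry runs of CG or of alternating CG and CA, so these were counted in all regions after the sequences had been seen. CGCGCGCG was searched as it stands, being its own reverse complement, and CGCACGCA on both strands (TGCGTGCG on the other), each at 8 bases, and a region can hold both. Either run was found in 109 members (7.27%), against 1.11% of all autosomal WGBS regions and 1.21% of the gains at a high level. Of the 2117 autosomal WGBS regions with a run, 193 (9.12%) were losses, against 1.21% of all autosomal WGBS regions. Most regions with a run were thus gains. Among mostly unique members, 89 (14.7%) held one, and among mostly repeated members 20 (2.23%). The losses from a lower level held one in 10.3%. Among regions of 150 to 300 bp the shares were 15.6% of mostly unique members and 0.760% of all autosomal WGBS regions. Mostly unique members with a run had a median fall of 12.2 points. Such runs are themselves simple repeats, and the part of read alignment there was not tested.

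At the threshold of 80%, the members just inside and the losses just outside had similar levels. Inside, a family 1 stretch at chr2:80809288-80811400 went from 80.08% to 52.5%, with 5 of 24 reference CpGs listed. The next, chr9:81442191-81442429, went from 80.1% to 59.4%, and the third, chr12:24665331-24665686, from 80.3% to 61.8%. Just outside, a region in an intron of the neuronal transcription factor gene Myt1l (chr12:29562345-29562509) went from 79.99% to 45.8%. A region at chr9:106099419-106099854 went from 79.99% to 70.4%, and one at chr6:131769488-131769774 from 79.94% to 66.2%.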

How the data were processed

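Genomic DNA of P21 whole retinas was profiled by WGBS and bACE-seq in 3 Cre- and 3 Tet tcKO libraries per assay, grouped by the sample labels. Per the study's methods, reads were trimmed (Trim Galore 0.4.4), mapped to mm10 (Bismark 0.18.2) and filtered by the authors for mapping qualities from 10 upwards and for duplicates (Picard), before MethylDackel (0.6.1) gave the level of each CpG. Their DMRs came from DSS, which smooths levels along the genome and joins neighbouring CpGs past its threshold. Each deposited group mean is a fraction (modified reads over all reads) and is printed here as a percentage. Which mean belongs to which group was read from how the authors named their lists. The area statistic, deposited as a score that adds up the test statistics of a region, served here to order named regions. Its sign was opposite to that of the difference in 29 members. The deposited difference between groups equalled the difference of the means and was not used further.

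Read as 1-based positions, all listed regions began and finished at a CpG cytosine of GRCm38. Genes came from the GENCODE M21 basic annotation (protein-coding and long noncoding genes). Sequence, soft-masking and words of 31 bases, counted on both strands of the whole assembly, came from RefSeq's GRCm38 sequence. Levels of 5hmC at a member are means over the overlapping bACE-seq regions, weighted by their CpGs. Scripts used Python (3.11.15), numpy (2.4.6), pandas (2.3.3), scipy (1.17.1) and numba (0.67.0), and the word search and the motif search were tested on simulated sequences.

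The regions named were, by rule, the 5 with the largest absolute area statistic and the 5 with the largest fall. Further ones were the 3 with the largest area statistic in each of the 3 fullest bins of 5 Mb, the 5 with the largest area statistic within 2 kb of a protein-coding start site, the 3 with the largest 5hmC fall among members covered to at least 50%, and 3 on each side of the 80% level. Sequences were printed for those of up to 300 bases. The members and the gene lists were chosen with earlier results of these data known. The split into repeated and unique sequence, the families and the motif search were added after seeing the data. No test was made, because the lists hold 1 mean per group.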

Additional observations from a re-analysis of the deposited data

How the results depend on the processing

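A value was counted as moved where it left the 95% interval of the reported value over regions (exact binomial for shares, order statistics for the median), or, for the number of members, changed by over 1.5 times. Members share libraries and some share sequence, so this served as a tolerance only, not as a measure of spread between samples. Of 40 alternative settings over 8 results, 13 stayed within this tolerance and 27 moved. The 1500 members became 253 with at least 10 CpGs, 691 with a fall of at least 0.1 and 256 with a fall of at least 0.2. The median fall was 9.62, 7.88 and 6.87 points at a Cre- level of at least 0.75, 0.85 and 0.9, 8.07 points with at least 10 CpGs, 11.1 points as a mean weighted by CpGs and 8.06 points without the fullest bin. The share overlapping a 5hmC loss was 16.8% with at least 50% of the member covered, 9.47% for 5hmC losses of at least 0.1, 38.7% for members with at least 10 CpGs and 19.5% for a fall of at least 0.2. The 10 fullest bins held 26.7% of members in bins of 10 Mb, 12.5% in bins of 1 Mb, 17.8% with at least 10 CpGs and 56.3% with a fall of at least 0.2. Masked bases made up 41.6% with a fall of at least 0.2 and 64.6% without the fullest bin. The intergenic share stayed within its interval under every setting tried, between 58.6 and 61.7%. For the following settings, added after seeing the data, the mostly repeated share was 71.3% from 10% of words, 49.7% from 90% of words, 56.5% with at least 10 CpGs, 24.2% with a fall of at least 0.2 and 63.3% without the fullest bin. The share with a run of CG or CGCA was 4.33% for CGCGCGCG alone, 10.3% at 150 to 300 bp and 9.38% with a fall of at least 0.2.

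No paired analysis was possible because the lists hold 1 mean per group, and leaving out each replicate was not run for the same reason. Depth is unknown, so no level has an interval, and the lists say nothing about regions they leave out.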
